A study of Drosophila melanogaster with 3 samples.

Results

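Intergenic binding regions close to a gene start are described here, from a ChIP-seq experiment on unpg (unplugged), a homeodomain transcription factor, in whole Drosophila melanogaster embryos. ChIP-seq sequences the DNA that is precipitated together with a protein, and a peak caller turns the reads into regions, each with a summit, the position of its highest signal. A summit was taken from the list that the authors derived by the irreproducible discovery rate (IDR), a measure of how well peaks repeat between replicates. It was kept when it lay inside no annotated gene of any kind other than a transposable element and when the nearest transcription start site of a protein-coding gene was 501 to 3000 bp away. This left 465 of 7176 IDR summits, or 6.48% (95% Wilson interval 5.93 to 7.07), called near-intergenic members below. The same rule applied to the 7176 strongest peaks of each replicate's own list gave 475, 462 and 463 summits in replicates 3, 4 and 5, a share of 6.50% ± 0.101 (SD, n = 3).

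The labels describe 1 group of 3 biological replicates, numbered 3, 4 and 5, all from the same transgenic line, unpg-GFP, which carries GFP fused to the C terminus of unpg, at 4 to 16 hours of embryonic age. Every cell type of the embryo was pooled, and no other genotype or treatment was part of the series. Embryos without the tag were not analysed here, and whether a peak needs the tagged protein was therefore not tested. The files hold peak lists without read counts, so the depth behind each peak is unknown.

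Intergenic DNA next to a gene start holds many of the enhancers, promoter-proximal elements and insulators that set when and where a gene is transcribed. Homeodomain proteins bind short A/T-rich words with an ATTA core, of which TAATTA is the best known, and these words are common in any A/T-rich DNA. unpg is known for the cerebral branch of the tracheal system and for the embryonic brain.

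The sequence around the strongest members is shown first, because the summits differed from their flanks in base composition. Each line gives the nearest protein-coding gene, the position on the dm6 assembly and the bases of the RefSeq genome within 50 bp of the summit, 5′ to 3′ on the plus strand. Capitals mark the longest run made of A and T alone.
DNAlig3, chr3R:12403076-12403176: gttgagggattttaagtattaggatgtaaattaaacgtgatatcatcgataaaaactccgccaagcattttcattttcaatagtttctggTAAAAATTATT
tara, chr3R:16224470-16224570: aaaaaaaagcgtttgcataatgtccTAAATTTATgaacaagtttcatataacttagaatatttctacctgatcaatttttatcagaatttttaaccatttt
sp3, chr3R:21520299-21520399: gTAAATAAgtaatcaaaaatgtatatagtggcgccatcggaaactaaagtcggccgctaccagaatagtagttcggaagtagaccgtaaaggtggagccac
jp, chr2L:9567463-9567563: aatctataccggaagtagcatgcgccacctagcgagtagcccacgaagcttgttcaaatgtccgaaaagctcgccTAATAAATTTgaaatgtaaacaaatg
NimC3, chr2L:14022256-14022356: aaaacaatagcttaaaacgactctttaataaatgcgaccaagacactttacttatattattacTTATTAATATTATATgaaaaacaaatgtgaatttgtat
nej, chrX:9687703-9687803: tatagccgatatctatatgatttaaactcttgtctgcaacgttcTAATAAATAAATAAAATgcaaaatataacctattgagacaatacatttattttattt

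Of these 6 windows, those near tara, NimC3 and nej had GC contents of 22.8, 21.8 and 22.8%, and the longest A/T run was 17 bases in the window near nej. The windows near sp3 (43.6%) and jp (42.6%) were far richer in G and C, so a low GC content was not shared by every strong member. The next lines show the strongest members that held the homeodomain word TAATTA, which is its own reverse complement, in capitals.
by, chr3R:9534292-9534392: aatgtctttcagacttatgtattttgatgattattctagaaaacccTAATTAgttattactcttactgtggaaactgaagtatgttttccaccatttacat
chinmo, chr2L:1649380-1649480: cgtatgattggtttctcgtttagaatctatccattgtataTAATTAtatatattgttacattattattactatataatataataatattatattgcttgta
Gr89a, chr3R:16497570-16497670: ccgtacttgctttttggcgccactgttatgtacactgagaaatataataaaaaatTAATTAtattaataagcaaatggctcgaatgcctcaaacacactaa
Atet, chr2L:4333063-4333163: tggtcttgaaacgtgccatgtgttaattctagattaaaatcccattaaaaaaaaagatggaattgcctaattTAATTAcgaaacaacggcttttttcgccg

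The 12 strongest members by the authors' deposited signal value ranked 69 to 286 of the 7176 IDR peaks. All 12 lay upstream of the nearest start site, at 503 to 2098 bp (median 725 bp), 6 of them in a gap between genes that point away from each other. Their ranks in the separate replicate lists stayed within 71 to 290 in replicate 3, 78 to 320 in replicate 4 and 56 to 373 in replicate 5. No replicate thus placed any of the 12 outside its 373 strongest of 30000 peaks. The IDR list was derived from these replicate lists, so their sharing is not an independent check.

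The strongest member lay 1287 bp upstream of DNAlig3, a gene for a DNA ligase, with an IDR rank of 69 and replicate ranks of 71, 83 and 56 (peak 3R 12402933 to 12403306). DNAlig3 is nested in the longer gene Sol1, and this member was the only 1 of the 40 in convergent gaps that lay upstream of its nearest start site. The member near tara (taranis, a gene known from cell cycle control and sleep) ranked 117, 78 and 107 in the replicates and lay 1131 bp upstream. The member near sp3 ranked 91, 183 and 181 and lay 579 bp upstream, that near jp, the junctophilin gene, ranked 171, 138 and 138 and lay 763 bp upstream. Replicate 4 placed the member near tara ahead of that near DNAlig3, and neighbours in this order overlapped in rank, so the order was not fixed.

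Several of the other strong members lay upstream of genes with broad roles. Near nej, which encodes the fly CBP histone acetyltransferase, the ranks were 276, 173 and 180 in replicates 3, 4 and 5, at 687 bp. Near Act5C, a cytoplasmic actin gene, they were 269, 316 and 373, at 666 bp. stck and by encode the fly PINCH and tensin proteins of integrin adhesion sites. The member near stck ranked 218, 216 and 222, the narrowest spread of the 12, and the member near by ranked 226, 169 and 273. NimC3, of the Nimrod family of phagocytosis genes, had a member at ranks 197, 207 and 176, and RasGAP1, a Ras GTPase activating protein gene, one at ranks 290, 180 and 191. CG17896 (ranks 176, 320 and 211) and CG10479 (242, 276 and 218) complete the 12.

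**Figure D1:**
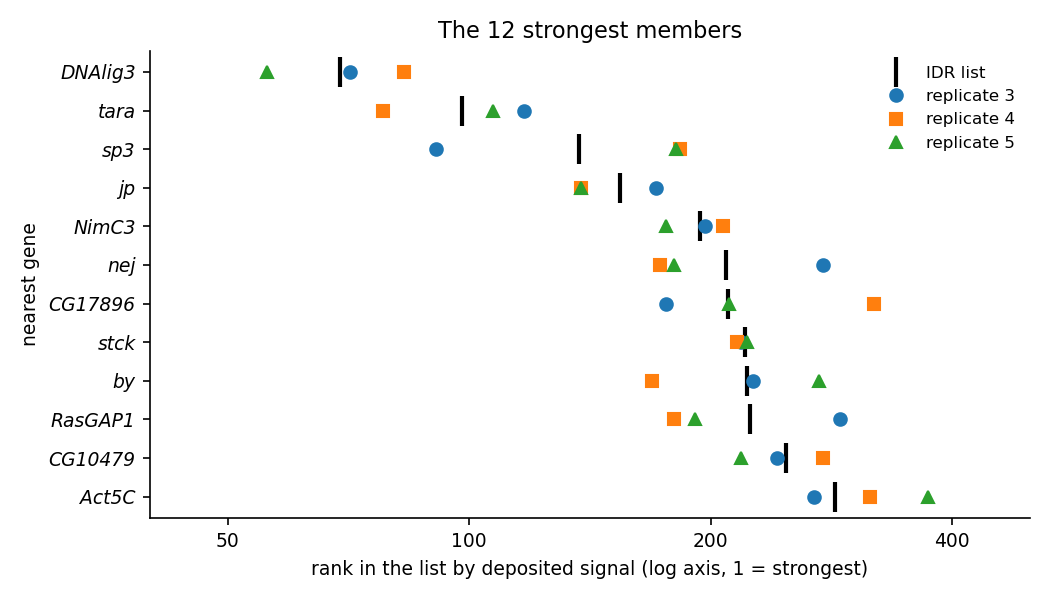
Rank by deposited signal value (log axis, 1 is the strongest peak of a list) of the 12 strongest near-intergenic members, named by nearest gene, in the IDR list (bars) and in replicates 3, 4 and 5 (points). The member near DNAlig3 sits leftmost in the IDR list at rank 69, and no point lies beyond rank 373.

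Over all members the signal value had a median of 303 (quartiles 215 and 497, highest 2953), and peaks were 92 to 648 bp wide with a median of 251 bp. A peak among the 7176 strongest overlapped 417 members in replicate 3, 407 in replicate 4 and 393 in replicate 5. It did so in all 3 replicates for 336 members, or 72.3%, beside 70.4% of all IDR peaks. Only 9 members had no peak at all in 1 or more replicate lists. Spearman's rho of the member ranks, a description over members that share libraries, was 0.820 for replicate 3 against 4, 0.809 for 3 against 5 and 0.856 for 4 against 5. The members were thus about as well supported as IDR peaks in general.

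Strength differed between summit classes. Of the members, 23.2% (108) belonged to the 1794 strongest IDR peaks, 1 in 4 of that list, against 16.7% of the 795 intergenic summits more than 3000 bp from a start site (far-intergenic), a ratio of 1.39 (Fisher's exact test, adjusted p = 0.0277 over 14 class comparisons). Among the 2636 promoter summits, within 500 bp of a start site, the share was 30.8%, which was higher than in the members (ratio 0.754, Fisher's exact test, adjusted p = 0.00656). Among the 1390 summits in introns at the same distance from a start site (near-intronic) it was 26.4% and the difference from the members did not pass (ratio 0.880, Fisher's exact test, adjusted p = 0.322). The difference from far-intergenic summits did not pass once peaks had to be supported by both of the other replicates, with adjusted p from 0.0655 to 0.179 over the 3 ways to leave out a replicate. The share supported in all replicates, 66.8% in far-intergenic summits, was not separated from that of the members by Fisher's exact test (adjusted p = 0.103).

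Members were placed unevenly within the DNA that could hold them. Counting every base that meets the rule gave 8456769 bp, in which the members stood at 55.0 per Mb (replicates 55.2 ± 0.855, SD, n = 3). Density was 70.5 per Mb at 501 to 1000 bp from the start site, 56.7 at 1001 to 1500 bp, 61.9 at 1501 to 2000 bp, 43.1 at 2001 to 2500 bp and 34.4 at 2501 to 3000 bp. In the replicates it was 75.3, 71.0 and 76.2 per Mb in the nearest bin and 37.3, 38.0 and 28.7 in the farthest, so these bins did not overlap. The bins at 1001 to 1500 and 1501 to 2000 bp, at 56.7 ± 0.964 and 59.4 ± 2.43 (SD, n = 3), differed by little more than the replicate spread. The median distance was 1375 bp (quartiles 864 and 1987). At the limits of the rule, the closest member lay 501 bp from E(spl)m2-BFM at rank 1068 and the nearest summit left out 498 bp from Dyro at rank 1034. At the far end the last member lay 2992 bp from bor at rank 2154 and the next summit 3006 bp from CG42713 at rank 5601.

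Placement also differed by side and by the orientation of the neighbouring genes. Upstream of the nearest start site lay 379 members, or 81.5% (replicates 82.1, 83.3 and 81.6%), beside 74.2% of the DNA that meets the rule. In the same terms, density was 60.4 per Mb upstream and 39.4 per Mb downstream, and the replicates ranged from 60.2 to 62.2 and from 35.3 to 39.0. Gaps between divergent genes held 185 members (39.8%) and 33.3% of the DNA. Tandem gaps held 239 (51.4%) and 52.8% of the DNA, and convergent gaps 40 (8.60%) and 13.7% of the DNA. Density was thus highest, 65.7 per Mb, in divergent gaps, 53.6 in tandem gaps and 34.6 in convergent gaps, with replicate means of 65.5 ± 0.542, 54.3 ± 2.03 and 33.7 ± 4.57 (SD, n = 3) that do not overlap. These are descriptions of 1 genome with no test. Side, orientation and distance are tied to each other and are not separate results. All 185 members in divergent gaps lay upstream, as did 1 of the 40 in convergent gaps. The median distance was 1294 bp upstream and 1682.5 bp downstream. Weaker pooled peaks outside the IDR list that meet the same rule (1775 of 22103) lay upstream in 79.7% and in divergent gaps in 39.1%, close to the shares of the members.

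**Figure D2:**
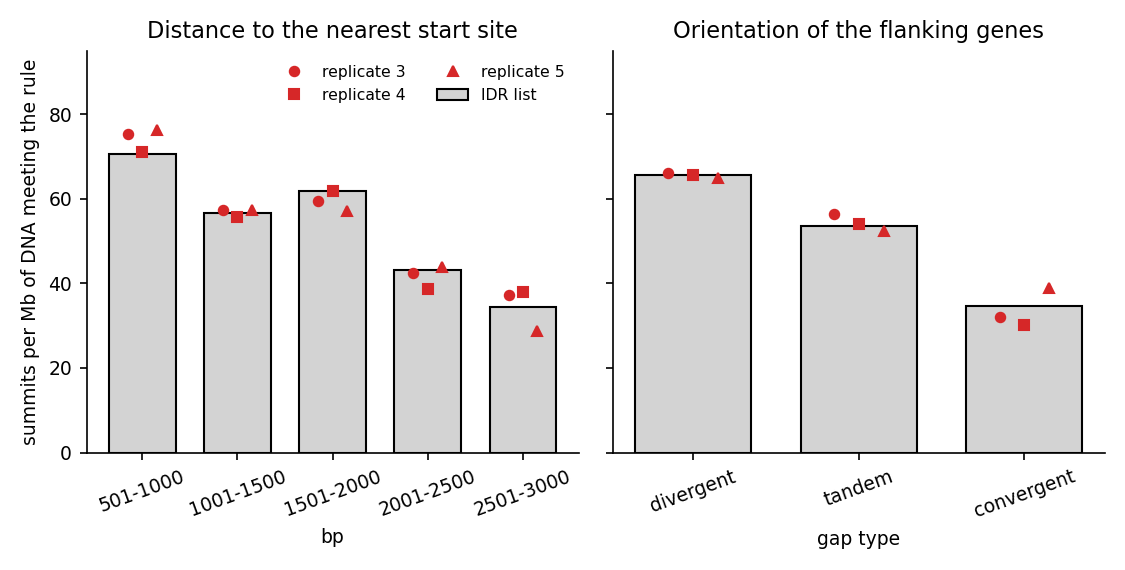
Near-intergenic summits per Mb of DNA that meets the rule, by distance to the nearest start site in bp (left) and by orientation of the flanking protein-coding genes (right), for the IDR list (bars) and for the 7176 strongest peaks of replicates 3, 4 and 5 (points). Density is highest at 501 to 1000 bp (70.5 per Mb) and in divergent gaps (65.7 per Mb) and lowest at 2501 to 3000 bp (34.4 per Mb) and in convergent gaps (34.6 per Mb).

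Chromosome arm 2L held 67.5 members per Mb of such DNA (replicates 71.6, 68.7 and 65.7), the highest value. It was 57.3 on 3L (replicates 53.8, 61.4 and 60.8), 50.7 on X, 50.3 on 3R and 49.2 on 2R (replicates 45.3, 46.6 and 49.8), so that 3L and 2R did not overlap. Chromosome 4 had 3 members in 71222 bp. Transposable elements made up 5.44% of the DNA that meets the rule, and 5 members (1.08%, Wilson interval 0.460 to 2.49) lay inside one.

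A summit at the promoter of the same gene accompanied some members. An IDR summit within 500 bp of a start site was counted only for the gene with the nearest start. A gene with a start within 500 bp of a summit that lay nearer to another gene's start was not counted for it. By this count 134 members (28.8%) had a nearest gene with a promoter summit, and 29.3, 30.7 and 33.5% did in replicates 3, 4 and 5. Over all 13945 protein-coding genes the share with a promoter summit was 17.0%. That is a share of genes and not of members, whether or not a gene has DNA that meets the rule. Near-intronic summits stood at 53.5%, far-intergenic summits at 20.6% and the weaker pooled peaks at 24.3%. With both kinds of summit taken from the 3588 strongest IDR peaks alone, the share was 16.6% of 235 members, beside 9.87% of all protein-coding genes, 32.9% of near-intronic and 9.17% of far-intergenic summits. tara, nej, by and Act5C were the 4 of the 12 strongest members' genes with such a promoter summit.

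Base composition changed sharply at the summits. Median GC content was 29.7% in the windows within 50 bp of the member summits (quartiles 24.8 and 35.6, range 10.9 to 63.4). It was 43.6% in equally long flank windows whose centre lay 300 bp to the right, likewise 43.6% to the left. The rule was applied to summits and not to flank windows, so these may lie in genes, and how many do was not counted. Of all bases in the DNA that meets the rule, pooled and not by window, 39.9% were G or C. The summit window was below the right flank in 347 members (74.6%). In replicates 3, 4 and 5 the summit medians were 30.7, 29.7 and 30.7% and the flank medians 44.6, 43.6 and 43.6%, so the summit was below the flank in every replicate. Mean GC content in 20-bp bins was lowest next to the summit, at 30.2%.

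**Figure D3:**
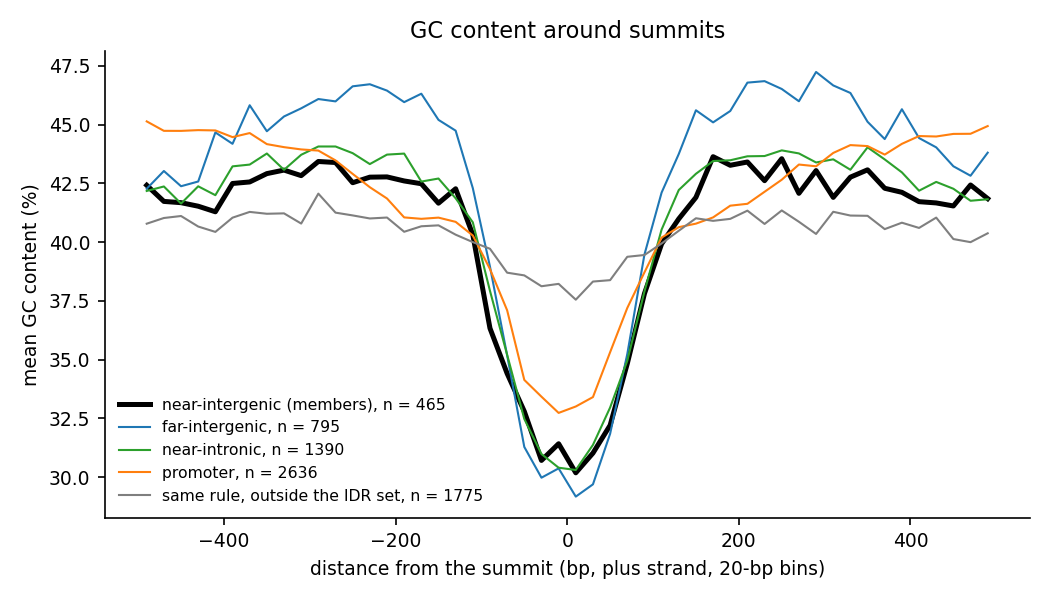
Mean GC content (%) in 20-bp bins by distance from the summit on the plus strand, for the 465 near-intergenic members, 795 far-intergenic, 1390 near-intronic and 2636 promoter IDR summits, and 1775 weaker pooled summits that meet the same rule. The curve of the members runs from up to 43.6% in the flanks to 30.2% next to the summit, close to the intronic curve (30.3%), while the weaker pooled summits only reach 37.5%.

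The dip was shared with the other IDR classes and was much shallower in weaker peaks. A GC content below the median of all IDR windows was found in 46.7% of members. It was found in 52.7% of far-intergenic, 46.4% of near-intronic and 41.3% of promoter summits, and Fisher's exact test did not separate the members from these (adjusted p = 0.103, 1 and 0.103). Among the 1775 weaker pooled peaks that meet the same rule it was 20.4% (ratio 2.29, Fisher's exact test, adjusted p = 4.42e-27), with a median of 37.6% at the summit and 41.6% in the flank. Within the members, cut by strength into 4 parts of 116 or 117, the summit medians were 29.7, 29.7, 27.7 and 32.2% from strongest to weakest. Runs of A and T of 15 or more bases occurred in 107 summit windows (23.0%) and 49 flank windows (10.5%), beside 20.8% of all IDR summit windows. The longest run in a member window was 39 bases.

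Single words followed the same composition. All 2080 words of 6 bases, each merged with its reverse complement, were compared between summit and right flank windows by exact McNemar tests with Benjamini-Hochberg adjustment, and 147 (7.07%) were more frequent and 213 (10.2%) less frequent at the summits. In replicates 3, 4 and 5 the counts were 160, 159 and 116 words more frequent and 221, 241 and 141 less frequent. They were 63 and 55 in the 3588 strongest IDR peaks and 241 and 351 with windows reaching 100 bp from the summit, so neither the counts nor their balance was fixed. Of the 36 words made of A and T alone, 33 were more frequent, as were 93 of 192 with a single G or C and 21 of 492 with 2. No word with 3 or more was more frequent, and 211 of them were less frequent. In replicates 3, 4 and 5, 33, 35 and 33 of the 36 A/T words were more frequent, and 11 in the weaker pooled peaks. Since the windows come from a single list, the tests describe that list and not a spread between samples.

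The word most clearly more frequent was AATATA, in 30.5% of summit and 9.25% of flank windows (adjusted exact McNemar p = 3.36e-13), beside 27.2% of all IDR summit windows. AAATAT was in 38.5% of summit windows and 15.5% of flanks (all IDR windows 37.8%), and in 36.6, 40.3 and 38.0% of the summit windows of replicates 3, 4 and 5. This word can overlap the one before in 5 bases, so their counts are not separate. CTTAAA, with a single C, was in 19.4% against 5.59% (adjusted exact McNemar p = 1.83e-08, all IDR windows 15.9%). At the other end CAGCCA was in 1.94% against 10.5% (adjusted exact McNemar p = 1.10e-05, all IDR windows 3.23%). The 7-base repeat CACACAC was in 6 summit windows (1.29%) and 34 flanks (7.31%, adjusted exact McNemar p = 1.34e-04 over 16 chosen words), beside 1.85% of all IDR summit windows. Thus A/T words were gained and words rich in G or C were lost towards the summit, from flanks to which the rule was not applied.

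The homeodomain word TAATTA was not among the words that passed. It was present in 52 member summit windows (11.2%, Wilson interval 8.63 to 14.4) and 34 flanks (7.31%), a ratio of 1.53 (exact McNemar p = 0.0630, adjusted p = 0.168 over 16 chosen words and 0.193 over all 6-base words). By that ratio it was the 35th of the 36 A/T words, whose median ratio was 1.95. In replicates 3, 4 and 5 it was in 10.7, 14.3 and 12.3% of summit windows and 7.79, 8.01 and 7.56% of flanks, higher at the summits in each, and it passed in replicate 4 alone (adjusted exact McNemar p = 0.335, 0.0249 and 0.114 over all 6-base words). The share in members differed from none of the other classes by Fisher's exact test: 11.1% in far-intergenic, 11.2% in near-intronic and 10.8% in promoter summits, 9.13% in the weaker pooled peaks (adjusted p from 0.322 to 1) and 11.4% of all IDR summit windows. Against their own flanks, the word did pass in the 3 larger IDR classes, at a ratio of 2.20 in far-intergenic, 1.88 in near-intronic and 2.09 in promoter summits (adjusted exact McNemar p = 9.12e-05, 6.65e-06 and 1.94e-12 over all 6-base words). Whether these ratios differ from that of the members was not tested. A word that misses the threshold is not shown to be unbound. In the same 4 parts of the members by strength, TAATTA was in 16.2, 9.48, 10.3 and 8.62% of windows from strongest to weakest, with overlapping Wilson intervals (10.6 to 24.0 in the strongest and 4.75 to 15.1 in the weakest).

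**Figure D4:**
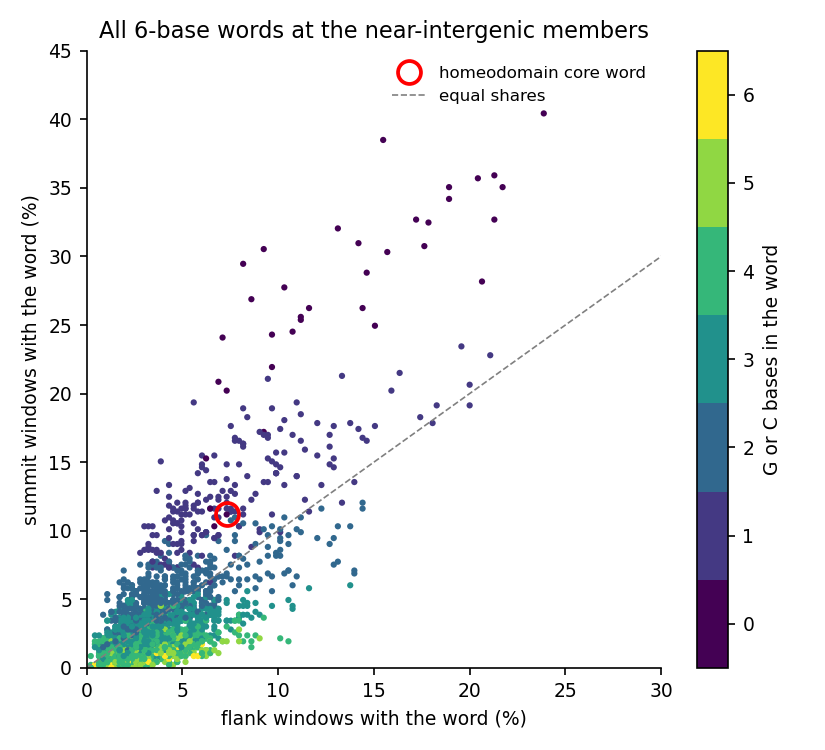
Share of near-intergenic member windows (%) that hold each of the 2080 words of 6 bases, at the summit (vertical) and 300 bp to the right (horizontal), coloured by the number of G or C bases in the word. All 36 A/T words lie above the line of equal shares, and the homeodomain word TAATTA (circle) lies among the less frequent of them, at 11.2% and 7.31%. TAATTA is its own reverse complement and so has fewer ways to occur than words merged with a different reverse complement.

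Words of other factors gave mostly low counts. TTTATG, bound by the Abd-B and caudal type of homeodomain, was in 17.6% of summit and 12.9% of flank windows (adjusted exact McNemar p = 0.168) and in 14.5% of all IDR windows. TTTATG stood in 11 of the 52 member windows with TAATTA, beside 82 of all 465 member windows. Whether the words occur together more often than apart was not tested, and their joint share over all IDR windows was not counted. An E-box, CAGGTG, was in 2 summit windows and 14 flanks (adjusted exact McNemar p = 0.0334, 1.78% of all IDR windows). The insulator and DREF word TATCGATA was in 0 of 465 summit windows, beside 0.920% of all IDR windows, and the core promoter word GGTCACACT was in none of the summit or flank windows. The remaining chosen words did not pass.

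Members were spread thinly over genes. They fell to 414 nearest genes, 2.97% of all protein-coding genes, of which 370 had a single member, 38 had 2, 5 had 3 and 1 had 4. By intergenic gap, 393 gaps with a median length of 5526 bp held them, and 59 gaps held 2 or more. Another IDR summit lay within 1000 bp of 21.7% of the members and within 400 bp of 16 of them, and 15 member peaks shared bases with another IDR peak. These shares were not counted over all IDR summits, so they do not show whether members lie closer together than IDR summits in general. unpg itself had no member.

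The gene with most members was chinmo, which encodes a BTB zinc finger protein known from the temporal identity of neurons. Its 4 members lay 994 to 2479 bp upstream, in the 37097 bp gap to RFeSP, which held 1 member more, the most of any gap. The strongest, shown above with its TAATTA, ranked 376 in the IDR list and 531, 341 and 225 in replicates 3, 4 and 5. The weakest, 202 bp from it, ranked 7004 and had no peak of its own in replicates 4 and 5, where the peak of the first spanned both. chinmo accordingly had 4, 3 and 3 members by the replicate lists.

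Genes with 3 members were stck, Rh5, CG13898, Cipc and Sema5c. stck kept 3 in each replicate, at 1243, 1804 and 2363 bp upstream. Rh5, a rhodopsin gene, had its strongest members at ranks 486 and 506, of which the first lay 1375 bp upstream and the other 2893 bp downstream of the start site. CG13898 had 3 in each replicate. Cipc, named for a partner of the Clock protein, had 3, 3 and 1 in replicates 3, 4 and 5. Sema5c, a semaphorin gene, had 2 in each replicate, where a pair of its summits fell in a single peak. RasGAP1, tara, CG33453 and NimC3 had 2 each.

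Some members lay close to the start of a noncoding gene. A start site of one was within 500 bp of 35 members (7.53%), 32 of them of the annotated type ncRNA, 2 tRNA and 1 snoRNA, and 31 of the 35 lay upstream of it. A summit downstream of such a start was kept only where it lay outside the gene, so the side was largely set by the rule. The share of all DNA that meets the rule within 500 bp of such a start was not counted. Of these 35 members 12 (34.3%) were among the 1794 strongest IDR peaks, beside 22.3% of the other 430, and 16 (45.7%) had a promoter summit at the nearest protein-coding gene, beside 27.4%. The members near NimC3, nej and Act5C, 3 of the 12 strongest, were 273, 436 and 206 bp upstream of a lncRNA. A member lay 83 bp upstream of Uhg4, a host gene of small nucleolar RNAs, at ranks 775, 543 and 937 in replicates 3, 4 and 5. These members were intergenic by the rule but lay as close to a start as promoter summits do.

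The member 159 bp upstream of flam, and 1584 bp upstream of the protein-coding gene DIP1, ranked 1145 in the IDR list and 1338, 874 and 1520 in replicates 3, 4 and 5. flam (flamenco) is the piRNA cluster known for silencing transposable elements in the somatic cells of the ovary. Its summit window, again on the plus strand with the longest A/T run in capitals, is shown because it lies next to that transcript's start.
flam, chrX:21631682-21631782: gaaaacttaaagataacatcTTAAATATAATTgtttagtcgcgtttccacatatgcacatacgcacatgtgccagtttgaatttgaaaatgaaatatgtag

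Developmental genes were sampled with 13 lists, to be read beside the 2.97% of all genes that have a member. The lists were small, so each count rests on few genes. Among tracheal genes 2 of 17 had a member, trh, the bHLH-PAS regulator of tracheal fate (ranks 3917, 6276 and 3327 in replicates 3, 4 and 5), and pnt, an ETS factor of receptor tyrosine kinase signalling (ranks 4641, 5319 and 5438). Of 19 genes of the EGF and FGF receptor pathway these were pnt and aop, the ETS repressor Yan. aop had members 1500 and 898 bp upstream, the first at ranks 341, 255 and 418. Both summit windows of aop held TTTATG.

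Among ligands and receptors of other pathways, dpp, the BMP ligand, had a member 1715 bp upstream at ranks 2121, 2107 and 2263 in replicates 3, 4 and 5. Dad, its inhibitory Smad, had one at ranks 4708, 5696 and 3433, and together they were 2 of 14 Dpp genes. fz, a Wnt receptor, had one at ranks 651, 625 and 552, and slp1, a forkhead segmentation gene, one 2203 bp downstream at ranks 2322, 1075 and 1443, 2 of 15 segment polarity genes. Of 15 Notch and E(spl) genes 3 had members. They were fng, a glycosyltransferase that modifies Notch, with ranks of 2875, 1702 and 1547, E(spl)m3-HLH, a bHLH repressor, with ranks of 1225, 1445 and 864 and a TAATTA in its window, and E(spl)malpha-BFM, of the Bearded family. The last had 2 members, 1787 bp upstream (ranks 581, 688 and 740) and 857 bp downstream (7613, 3700 and 3620).

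In the nervous system lists, robo2, a Slit receptor, had a member 2487 bp upstream at ranks 802, 477 and 796 in replicates 3, 4 and 5. With caps, a leucine-rich repeat gene at ranks 10634, 5174 and 6135, it made 2 of 17 axon guidance genes, and the replicate lists gave 1, 3 and 3. VGlut, the vesicular glutamate transporter gene, was the 1 of 11 neuronal genes and pnt the 1 of 9 glial genes. Of 18 chemosensory receptor genes Gr93a and Gr93d had members, 2 and 1 in number.

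No member fell to any of the 8 Hox genes, 32 other homeodomain genes, 16 muscle genes or 12 ecdysone genes that were listed. These zeros hold for the listed genes alone, since genes of such kinds outside the lists did have members, named here after their values were seen. Among them were the homeodomain gene bcd (bicoid), the muscle gene Act87E and Hr38, a nuclear receptor gene with 2 members. The replicate lists gave 0, 1 and 0 of the homeodomain genes and 1, 0 and 2 of the muscle genes in replicates 3, 4 and 5, so these counts of 0 moved by as much as 2 genes. Of the same lists 1 of 8 Hox genes, 9 of 32 homeodomain, 4 of 16 muscle and 5 of 12 ecdysone genes had an IDR summit at a promoter. Among all protein-coding genes 17.0% had one, with each summit counted only for its nearest gene, and no difference from that share was tested. Set beside the 2.97% of all genes, a count of 0 in a list of this size shows no difference.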

How the data were processed

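The samples were 3 biological replicates of 1 group (unpg-GFP embryos, 4 to 16 hours), so no comparison between groups was made. For the antibody, the description of each sample names anti-GFP and the antibody field names unpg. Chromatin was sonicated to 200 to 800 bp, per the labels. The 5 peak lists are on dm6. Per the deposited file descriptions, the authors called peaks on each replicate and on the pooled reads against a shared control and derived the IDR list from them. The aligner, the caller and the IDR threshold were not given in the sources used here, nor were versions. Replicate and pooled lists hold 30000 peaks each. The deposited signal score of a peak is the authors' value on a scale that is not stated and only ranked peaks within a list. The deposited −log10 q-value was not used for ranking, and the deposited summit offset gave each summit. The authors' replicates are separate lists, and values per replicate come from the 7176 strongest peaks of each.

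Genes and start sites of all protein-coding transcripts came from Ensembl release 115, and bases from the Release 6 RefSeq genome of the same assembly. All 465 members also met the rule in the RefSeq annotation. Coordinates are 1-based. Python 3.11.15, numpy 2.4.6, scipy 1.17.1, pandas 2.3.3 and matplotlib 3.10.9 were used. Summit and flank windows were compared by exact McNemar tests, classes by Fisher's exact tests, all two-sided, with Benjamini-Hochberg adjustment over 16 chosen words, 2080 words of 6 bases or 14 class comparisons and a threshold of 0.05. With strata of GC content, TAATTA was compared between classes by a pooled odds ratio and the Mantel-Haenszel test. The word comparison was tried on simulated windows, made for both sides by shuffling flank windows and planting words in 1 side. They lack the difference in GC content between real summits and flanks, so the trial does not cover calls that go with composition. Words were searched on both strands. A replicate supported a member when 1 of its strongest peaks overlapped it by 1 bp. Wilson intervals cover counting error only, and peaks, windows and genes are not independent replicates. Nothing in the labels says whether the replicates came from separate cultures of flies, so their spread may be partly technical.

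Named genes are the nearest genes of the 12 strongest members, the 10 genes with most members, unpg and up to 3 genes of each of 13 lists. E(spl)m2-BFM, Dyro, bor and CG42713 mark the limits of the rule, and Uhg4, flam, Sol1, bcd, Act87E, Hr38 and the genes of other printed windows were chosen after their values were seen. The members, words and lists were chosen with earlier results of these data known. Of the listed names, dof and hgtx were not matched in the annotation and were left out. Alternatives varied the replicates used, the strength and distance limits, transposable elements, the window, the flank, the overlap and the control for GC content. The shares of all genes and of the other classes with a promoter summit in the 3588 strongest IDR peaks were added after seeing the data.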

Additional observations from a re-analysis of the deposited data

How the results depend on the processing

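Of 131 recomputed values, 108 counted as unchanged. For a tested ratio this meant the same side of the threshold, whichever way the ratio pointed. For a share without a test it meant a move of less than the replicate spread. Word counts were allowed more, such as 154 lower words against 213 with start site distances over 1000 bp. Some ratios that passed in neither setting turned, such as low GC content against promoter summits, from 1.13 to 0.902 in the 3588 strongest IDR peaks. Leaving out a replicate meant keeping the IDR peaks supported by both of the others. The share of members among IDR summits then ran from 6.54 to 6.63%, the upstream share from 82.2 to 82.8%, the share in divergent gaps from 38.6 to 40.4% and the share with a promoter summit from 24.0 to 24.9%. The ratio of strong peaks to far-intergenic summits ran from 1.27 to 1.32 and no longer passed. In the 3588 strongest IDR peaks, 63 words were higher and 55 lower, with fewer windows tested, 40.4% of members lay in divergent gaps and 16.6% had a promoter summit, with fewer promoter summits in that list. Replicate support against near-intronic summits turned from a ratio of 1.01 to 0.970 (Fisher's exact test, adjusted p = 0.00708); the cause was not tested. With start site distances over 1000 bp, members were 4.43% of summits, 75.8% upstream, 37.7% in divergent gaps and 26.4% with a promoter summit. Low GC content against promoter summits then passed at a ratio of 1.25 (Fisher's exact test, adjusted p = 0.00342), and the cause was not tested. With windows reaching 100 bp from the summit, 241 words were higher and 351 lower. TAATTA at summits against flanks did not pass under any of the 8 alternatives (ratio 1.30 to 1.90, adjusted exact McNemar p from 0.0518 to 0.937). In strata of GC content the pooled odds ratio of TAATTA against the weaker pooled peaks was 0.863. Without strata the ratio of shares, a different measure, was 1.23, and neither passed. No paired analysis was possible because the series has 1 group. Without read counts the depth behind a peak is unknown, and a word's absence from a window is limited by the summit's precision, which the lists do not give.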
